A study of Mus musculus with 16 samples.

Results

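The genes described here are those of the cell cycle and of DNA replication, measured in the liver of female APOE3Leiden mice fed the coffee diterpene cafestol. They were chosen by symbol: the replicative helicase genes (Mcm followed by a digit), cyclins A, B, D, E and G, the Cdk and Cdkn genes, genes whose symbol is Cdc followed by a digit, E2f, Rfc, DNA polymerase alpha, delta and epsilon, Gadd45 and Aurora kinase genes, and Tyms, Pcna, Mki67, Top2a, Plk1, Rrm1, Rrm2, Trp53 and Bub1. The rule uses no measured value, but it was set with earlier results of these data known. The rule found 71 genes, read by 76 probes, of 6734 genes named on the array. Values for 70 of them entered the tests. Pola1, the catalytic subunit of DNA polymerase alpha, had values in 4 mice and was not tested. Because the rule goes by letters, it also takes in genes that share a prefix without a role in the cycle, such as Cdc42 and its binding partners.

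All mice were APOE3Leiden transgenics, which carry a human variant of apolipoprotein E and have raised blood lipids on a fatty diet, on a largely C57BL6/JIco background. They were 10 weeks old at the start and ate diet W, a semi-synthetic diet with 15 g of saturated fat and 0.25 g of cholesterol per 100 g, for 4 weeks. The 7 control mice received diet W alone, and the 8 treated mice received it with 0.04% cafestol and 0.02% kahweol, a related coffee diterpene, so the treatment is the mixture of both. Liver poly(A) RNA of each treated mouse, in Cy5, was hybridised with control-diet liver RNA, in Cy3, on 2 arrays, which gives 16 arrays and no array with the dyes exchanged. A dye effect of a gene therefore cannot be told apart from the effect of the diet. The labels do not say how the RNA of the control mice was combined.

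Each value is the deposited log2 ratio of the 2 channels, averaged over the 2 arrays of a mouse, or read from 1 where the other was blank. Here ± is the SD over mice (n = 8 unless another number is given). The sources used here do not state which channel is the numerator, so signs are given as deposited and no direction is drawn from them. The drug-metabolism gene Gstm1, which stood at -2.48 ± 0.23 (lowest mouse -2.79, highest -2.15), and Cyp7a1, which catalyses the first step of the classic route from cholesterol to bile acids and stood at 1.56 ± 0.38 (lowest 1.14, highest 2.14), mark the 2 signs: a cell cycle gene with a negative value lay on the side of Gstm1, and one with a positive value on the side of Cyp7a1. Each gene's mean was tested against 0 with limma, and p-values were adjusted over all 8348 genes and unnamed probes tested. This test measures the spread among treated mice and leaves out that of the control mice. A ratio carries no level, so these arrays cannot show how strongly a gene was expressed. In whole liver, fewer cells of a type and less RNA per cell cannot be told apart.

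Cell division is driven by cyclin-dependent kinases (CDKs), which work only with a bound cyclin and are held back by CDK inhibitors. Once a cell passes the G1 checkpoint, E2F transcription factors switch on genes for the MCM helicase, the polymerases and nucleotide synthesis, and later the mitotic kinases divide the copied chromosomes. Most hepatocytes of an adult liver rest outside the cycle but can re-enter it, and the inhibitors and Gadd45 genes, several of which are targets of p53, respond to stress even in resting cells.

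The promoters of 6 genes on which the results turn are shown: 3 MCM genes whose values passed the test with opposite signs, the CDK inhibitor Cdkn1a, Gadd45g, which had the most negative mean, and Top2a, which differed between the identifier series of mice. Each is 300 bases long, 250 before the annotated start and 50 after it, from RefSeq on GRCm38.p6, 5′ to 3′ on the gene's strand. Capitals mark matches to the motifs named in the next paragraph. They lie at chr1:128359656-128359955 on the minus strand (Mcm6), chr2:132815891-132816190 on the plus strand (Mcm8), chr2:5012742-5013041 on the minus strand (Mcm10), chr17:29090729-29091028 on the plus strand (Cdkn1a, the first of 2 listed starts), chr13:51846425-51846724 on the plus strand (Gadd45g) and chr11:99024140-99024439 on the minus strand (Top2a).
Mcm6: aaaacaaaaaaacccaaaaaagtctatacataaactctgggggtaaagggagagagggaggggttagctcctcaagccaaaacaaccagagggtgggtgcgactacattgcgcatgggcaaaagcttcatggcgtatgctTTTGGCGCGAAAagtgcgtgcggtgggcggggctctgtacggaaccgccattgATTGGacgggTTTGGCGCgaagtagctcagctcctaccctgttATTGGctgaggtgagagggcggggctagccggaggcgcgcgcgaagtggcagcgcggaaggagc
Mcm8: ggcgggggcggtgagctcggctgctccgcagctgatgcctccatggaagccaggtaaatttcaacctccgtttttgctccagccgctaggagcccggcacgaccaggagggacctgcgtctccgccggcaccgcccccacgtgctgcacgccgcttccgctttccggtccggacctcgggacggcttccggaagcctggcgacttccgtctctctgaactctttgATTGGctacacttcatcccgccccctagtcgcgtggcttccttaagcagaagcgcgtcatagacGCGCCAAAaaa
Mcm10: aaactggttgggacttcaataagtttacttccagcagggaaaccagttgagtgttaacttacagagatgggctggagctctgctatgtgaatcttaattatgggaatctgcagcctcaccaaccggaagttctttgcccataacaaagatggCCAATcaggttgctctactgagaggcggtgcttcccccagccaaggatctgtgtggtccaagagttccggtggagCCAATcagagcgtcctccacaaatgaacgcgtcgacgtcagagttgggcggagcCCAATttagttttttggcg
Cdkn1a: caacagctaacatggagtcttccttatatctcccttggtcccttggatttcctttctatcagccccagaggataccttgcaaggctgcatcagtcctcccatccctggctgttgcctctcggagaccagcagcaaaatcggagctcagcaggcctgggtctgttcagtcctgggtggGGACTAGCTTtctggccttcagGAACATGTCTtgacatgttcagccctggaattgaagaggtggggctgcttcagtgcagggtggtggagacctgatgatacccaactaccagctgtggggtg
Gadd45g: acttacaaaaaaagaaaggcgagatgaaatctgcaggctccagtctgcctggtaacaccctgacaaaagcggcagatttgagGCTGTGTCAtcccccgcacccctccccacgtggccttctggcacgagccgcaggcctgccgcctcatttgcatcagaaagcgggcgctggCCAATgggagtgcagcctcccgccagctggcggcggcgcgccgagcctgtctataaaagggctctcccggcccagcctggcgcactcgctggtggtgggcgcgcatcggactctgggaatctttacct
Top2a: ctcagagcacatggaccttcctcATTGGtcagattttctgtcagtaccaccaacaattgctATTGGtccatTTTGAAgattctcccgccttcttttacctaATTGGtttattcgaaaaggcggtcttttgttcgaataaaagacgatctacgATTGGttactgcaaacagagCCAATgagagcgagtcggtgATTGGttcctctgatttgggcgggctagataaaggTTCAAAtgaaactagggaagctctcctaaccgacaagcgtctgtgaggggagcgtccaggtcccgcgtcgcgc

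The motifs were searched on both strands: E2F (TTTCCCGC, TTTGGCGC, TTTCGCGC or TTTGCCGC), the CCAAT box (CCAAT), the cell cycle homology region or CHR (TTTGAA), the core of the antioxidant response element or ARE (TGACNNNGC) and the p53 half-site. Mcm6 held 3 E2F matches, 2 of which overlap, at -110, -106 and -47 relative to the start, and Mcm8 held 1 at 39. Mcm10 held none of these E2F words and 3 CCAAT boxes. The Cdkn1a window held p53 half-site matches at -73 and -51, Gadd45g held 1 ARE core at -168, and Top2a held 6 CCAAT boxes and 2 CHR words. A promoter was listed for 59 of the 71 genes. The E2F words stood in 11 of them (18.6%), against 2.32% of 27025 promoters in the table. Among the genes with a promoter, they stood in 1 of 16 that were negative in the test (6.25%), 2 of 8 that were positive (25%) and 7 of 34 that did not pass (20.6%). The CCAAT box stood in 54.2% of the 59 promoters against 37.9% of all, the CHR in 22% against 18.1%, the ARE core in 16.9% against 12.5% and the p53 half-site in 10.2% against 8.37%. These are matches of letters, and nothing is drawn from them about binding.

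In the mean over mice, 27 of the 70 genes passed the test at an adjusted p under 0.05, 19 with a negative and 8 with a positive value. The negative genes were led by Gadd45g, the CDK inhibitors Cdkn2d, Cdkn1a and Cdkn1c, and the helicase subunit Mcm6, and the positive ones by Mcm10 and Tyms. All changes were small: the means ran from -0.43 to 0.49, 5 genes reached 1.2-fold (7.14%, against 8.29% of all tested) and 0 reached 1.5-fold. The shares called lay near those of the whole array. The 27 make 38.6%, where 43.4% of everything tested passed. For negative calls the shares were 27.1% of the cell cycle genes against 25.4% of all, and for positive calls 11.4% against 18%. The median of their means was -0.03 against -0.02 over all tested, and the median size of the means was 0.0927 against 0.0862. Another 9 genes had an unadjusted p under 0.05 without passing.

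**Figure D1:**
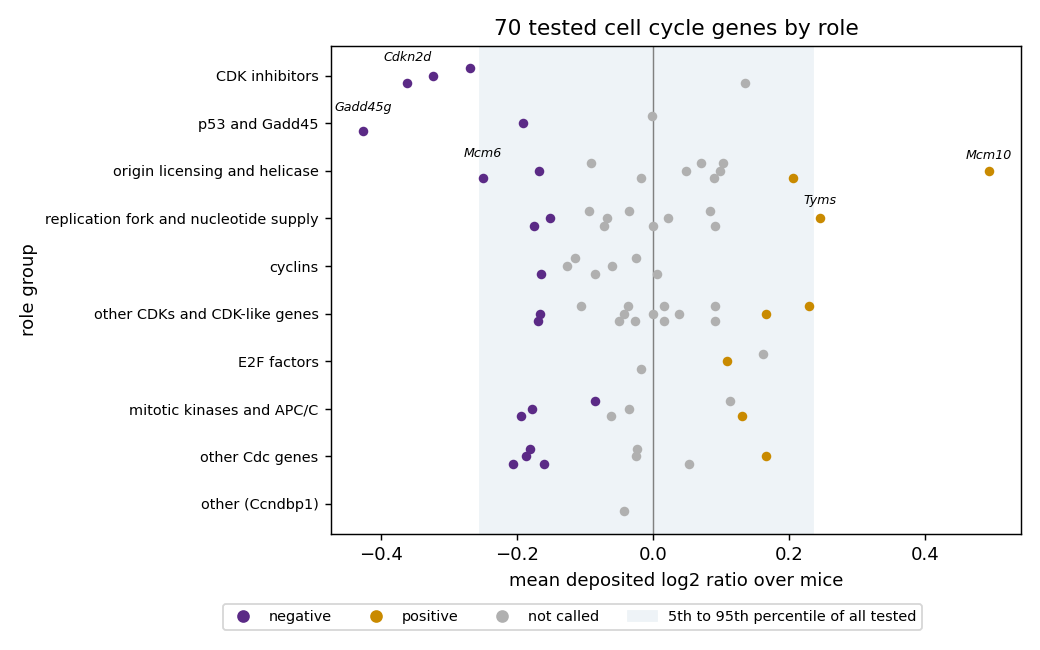
Mean deposited log2 ratio over mice (horizontal axis) of the 70 tested genes by role group (vertical axis), with 1 point per gene coloured by the outcome of the limma test and the 5th to 95th percentile of all 8348 tested shaded. Most points lie inside the shaded range of -0.25 to 0.24, and 6 lie outside it, among them Gadd45g at -0.43 and Mcm10 at 0.49.

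Stricter tests called fewer of the genes. Against a minimum of 1.2-fold, 1 gene passed, Mcm10 (1.43% against 1.47% of all tested). With the spread of 7 control mice added, on the assumption that they vary like the treated ones, 18 passed (25.7% against 21.7%). The 9 that no longer passed were Ccne1, Cdc14b, Cdc16, Cdc25a, Cdc37l1, Cdc42se1, Cdk11b, Cdk2ap2 and E2f6. In 14 genes (20%) every measured mouse had the same sign, against 18.4% of all tested. When each mouse was left out in turn, 24 of the 27 passed each time. The exceptions were Cdc16, which was lost in 6 of the 8 fits (adjusted p from 0.0241 to 0.107), Cdc25a, lost in 5 (0.0178 to 0.0954), and Cdk11b, lost in 5 (0.0056 to 0.0722).

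**Figure D2:**
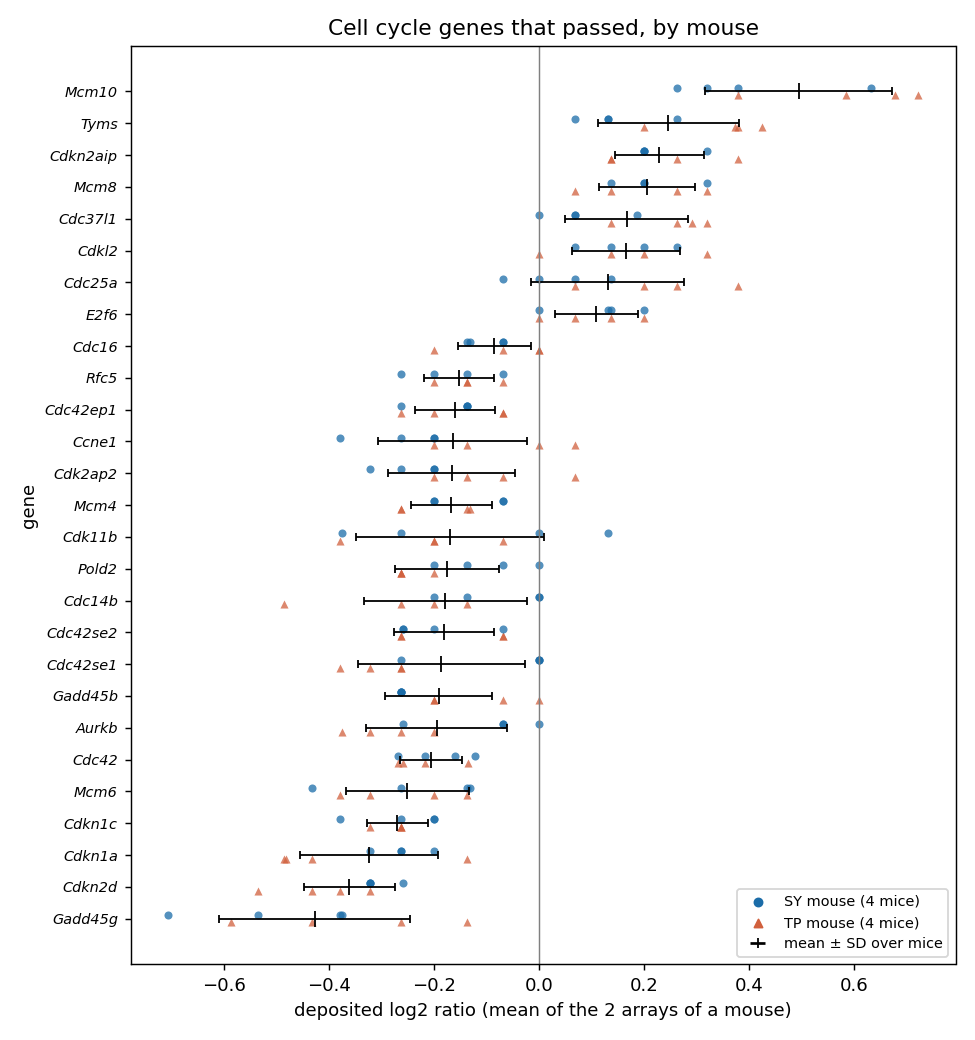
Deposited log2 ratio of each mouse (horizontal axis, mean of its 2 arrays) for the 27 genes that passed (vertical axis, ordered by mean), with circles for 4 SY mice, triangles for 4 TP mice, the mean as a vertical tick and the SD over mice as a bar. All mice of Mcm10 lie between 0.26 and 0.72 and all of Cdkn2d between -0.54 and -0.26, while the mice of Cdk11b fall on both sides of 0.

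The CDK inhibitors had the most negative median of the role groups, -0.30 over 4 genes, of which 3 were negative. Cdkn2d, which binds Cdk4 and Cdk6 and keeps them from pairing with cyclin D, was negative in 8 of 8 mice, from -0.54 (TP4163) over a median of -0.32 to -0.26 (mean -0.36 ± 0.09, 1.28-fold, adjusted p = 1.16e-05). Every mouse lay at or below -0.26, and it had the lowest adjusted p of the 70. Cdkn1a, the inhibitor that p53 switches on, ran from -0.49 (TP4163) over a median of -0.29 to -0.14 (TP4215), with a mean of -0.32 ± 0.13 (1.25-fold, adjusted p = 0.000118). Cdkn1c, the imprinted inhibitor of the same family, ran from -0.38 over a median of -0.26 to -0.20, with a mean of -0.27 ± 0.06 (1.2-fold, adjusted p = 2.71e-05). Both were negative in all mice, and the mice of Cdkn1c lay closest together of these 3. Cdkn2b, an inhibitor of Cdk4 and Cdk6 like Cdkn2d, did not pass: its mice spread from -0.32 to 0.43 around a mean of 0.14 ± 0.24 (adjusted p = 0.131).

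Of the 3 Gadd45 genes, which encode small stress proteins that bind Cdk1, PCNA and the stress kinase Map3k4, 2 were negative. Gadd45g had the most negative mean of all 70 genes, -0.43 ± 0.18 (1.34-fold, adjusted p = 9.47e-05). Its mice ran from -0.71 (SY518Z) over a median of -0.41 to -0.14 (TP4215), all below 0. The 2 arrays of SY518Z read -0.93 and -0.49, a gap of 0.44 that was the third largest among these genes. Gadd45b had a mean of -0.19 ± 0.10 (adjusted p = 0.00136), and its 4 SY mice all stood at -0.26 while its TP mice reached 0.00. Gadd45a, the member of the family known best as a p53 target, stood at 0.00 ± 0.16, with 4 mice below and 4 above 0 (adjusted p = 1). Trp53, Pcna and Bub1 are not analysed here.

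Among 11 genes of origin licensing and the helicase, 2 were negative and 2 positive, and the signs differed within the MCM family. Mcm6, a subunit of the ring of Mcm2 to Mcm7 that unwinds DNA at the fork, was negative in 8 of 8 mice, from -0.43 over a median of -0.23 to -0.13 (mean -0.25 ± 0.12, adjusted p = 0.000403). Mcm4, another ring subunit, ran from -0.26 over -0.17 to -0.07 (mean -0.17 ± 0.08, adjusted p = 0.00131). Mcm10, which is no ring subunit but helps to switch the loaded helicase on, had the largest mean of the 70 genes, 0.49 ± 0.18 (1.41-fold, adjusted p = 3.22e-05). Its mice ran from 0.26 (SY524ROB+L) over a median of 0.48 to 0.72 (TP4215); none overlaps the range of Mcm6 or Mcm4. Mcm8, which works with Mcm9 in recombination repair, was positive in 8 of 8 mice, from 0.07 over 0.20 to 0.32 (mean 0.21 ± 0.09, adjusted p = 0.000535).

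The other ring subunits did not pass: Mcm2 stood at 0.07 ± 0.24, Mcm3 at 0.10 ± 0.12, Mcm5 at 0.09 ± 0.11 and Mcm7 at -0.09 ± 0.16. Mcm2 had 4 mice at 0 and 1, TP4215, at 0.57. These subunits, and the proliferation genes Mki67, Ccna2, Ccnb2 and Cdk1 given later, were named after their values were seen. Closest to 0 among the genes that did not pass were Mcm3ap, whose protein is named for binding Mcm3 and acts in mRNA export (-0.02 ± 0.13), and Cdc45, a partner of the ring in the active helicase (0.05 ± 0.24, n = 7). The mice of Cdc45 split by identifier series, as described later.

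At the replication fork and in nucleotide supply, the test called 2 of 11 genes negative and 1 positive, and 8 did not pass. Tyms, thymidylate synthase, was positive in 8 of 8 mice, from 0.07 (SY521RL) over a median of 0.23 to 0.42 (TP4215), with a mean of 0.25 ± 0.13 (adjusted p = 0.000785). Pold2, the accessory subunit of DNA polymerase delta, stood at -0.17 ± 0.10 (lowest -0.26, median -0.20, highest 0.00, adjusted p = 0.00208). Rfc5, a subunit of the clamp loader that places PCNA on DNA, stood at -0.15 ± 0.07 (lowest -0.26, median -0.14, highest -0.07, adjusted p = 0.00165). All 8 mice were below 0 for Rfc5 and 7 for Pold2. The subunits of ribonucleotide reductase, which makes the DNA building blocks, did not pass. Rrm2, its S-phase subunit, stood at 0.00 ± 0.08, with no mouse beyond -0.14 or 0.14. Rrm1, the catalytic subunit, averaged 0.02 ± 0.31 (n = 7), the largest SD of the 70 genes, with SY and TP mice on opposite sides of 0. Pola1 ran from -0.07 to 0.14 in the 4 SY mice and was blank in all TP mice.

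Mki67, Top2a and Pold1 did not pass the test of the mean. Mki67, the antigen of dividing cells, stood at -0.07 ± 0.19 (lowest -0.38, median -0.07, highest 0.20). Top2a, the topoisomerase of dividing cells, stood at 0.08 ± 0.25, and Pold1, the catalytic subunit of polymerase delta, at 0.09 ± 0.27 (n = 7). A p that misses the threshold does not show that they stayed the same. In simulated data of this design, with genes drawn at random, 83% of 1.2-fold differences and 99% of 1.5-fold differences were called. These rates do not carry over to Mki67, Top2a and Pold1, whose SDs lie above the median of 0.106 over all tested. The simulation also changed 100 genes at each size, where 43.4% of everything tested passed in the data.

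Of 7 cyclins, 1 passed. Ccne1, cyclin E1, which drives entry into S phase with Cdk2, had a mean of -0.16 ± 0.14 (adjusted p = 0.0116), from -0.38 (SY524ROB+L) over a median of -0.20 to 0.07 (TP4215), with 6 mice below 0. Ccnd1, cyclin D1, which carries growth signals into the cycle in liver, averaged 0.01 ± 0.29, the second largest SD of the 70. Its mice ran from -0.43 (TP4168) to 0.43 (SY518Z), with a mean of 0.19 ± 0.27 in SY and -0.17 ± 0.21 in TP mice, and this difference did not pass (adjusted p = 0.116). Ccng2, an unconventional cyclin linked to arrest, stood at -0.03 ± 0.13. The cyclins of S phase and mitosis, Ccna2 at -0.08 ± 0.09 and Ccnb2 at -0.06 ± 0.07, did not pass either.

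Ccng1, cyclin G1, a p53 target, did not pass over all 8 mice (-0.11 ± 0.14, adjusted p = 0.0564). In 7 mice it lay between -0.20 and -0.13, and in TP4215 at 0.22. The 2 arrays of TP4215 read 0.58 and -0.14, the largest gap between arrays of a mouse among these genes (0.72). Without TP4215 it passed (adjusted p = 0.000589), and so did Ccnd2, Cdk4, Cdk6 and Aurka (0.0362, 0.0461, 0.0442 and 0.0284). TP4215 was not alone in this. Without SY524ROB+L, Ccna2, Cdk7, Cdkn2b, E2f5 and Pole passed, and Ccna2 and E2f5 also did without SY522ROB. Further genes newly passed without SY521RL, SY518Z, TP4168 or TP4163.

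The E2F genes numbered 3. E2f6, a repressor of the family, was positive at 0.11 ± 0.08 (adjusted p = 0.0154), with 6 mice above 0 and 2 at 0. E2f3, an activator of S-phase genes, stood at -0.02 ± 0.18 with 4 mice on each side. E2f5, which represses with Rbl2 in resting cells, stood at 0.16 ± 0.22 and did not pass (adjusted p = 0.0611).

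Among 7 mitotic kinases, Cdc25 phosphatases and genes of mitotic exit, 3 were negative and 1 was positive. Aurkb, the Aurora kinase of the chromosomal passenger complex, had a mean of -0.19 ± 0.13 (lowest -0.37 in TP4215, median -0.23, highest 0.00, adjusted p = 0.0036), with 7 mice below 0. Cdc14b, a phosphatase, stood at -0.18 ± 0.16 (lowest -0.49, median -0.17, highest 0.00, adjusted p = 0.0106). Cdc16, a subunit of the anaphase-promoting complex, had the smallest mean that passed, -0.08 ± 0.07 (adjusted p = 0.0389), which is less than 0.14, the smallest step of the deposited values. Cdc25a, which activates CDKs at the G1/S boundary, was positive at 0.13 ± 0.15 (lowest -0.07, median 0.10, highest 0.38, adjusted p = 0.0364). Its mean, too, is below that step. Plk1, the Polo-like kinase of mitosis, at -0.03 ± 0.09, and Cdc25c, at -0.06 ± 0.19, did not pass.

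Of 15 further CDK and CDK-like genes, 2 were negative, 2 were positive and their median was 0. Cdk11b, a kinase tied to transcription and splicing, stood at -0.17 ± 0.18 (lowest -0.38, median -0.20, highest 0.13, adjusted p = 0.024). Cdk2ap2, whose protein is named for binding Cdk2, stood at -0.17 ± 0.12 (lowest -0.32, median -0.20, highest 0.07, adjusted p = 0.00604), with 7 mice below 0. Cdkn2aip, a protein that binds the ARF tumour suppressor and carries an inhibitor's symbol without being one, was positive in 8 of 8 mice at 0.23 ± 0.09 (lowest 0.14, median 0.20, highest 0.38, adjusted p = 0.000212). Cdkl2, a CDK-like kinase, stood at 0.17 ± 0.10 (lowest 0.00, median 0.17, highest 0.32, adjusted p = 0.0033). The kinases that drive the cycle itself did not pass: Cdk1, the mitotic CDK, stood at -0.11 ± 0.14, with 4 mice below 0 and 4 at 0. Cdk13 at 0.00 ± 0.06, Cdk16 at 0.02 ± 0.09 and Cdk17 at 0.02 ± 0.05 lay closest to 0.

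The prefix Cdc took in 8 genes outside the machinery of division, of which 4 were negative and 1 was positive. All 4 negative genes belong to the circle of Cdc42, a small GTPase of the actin skeleton. Cdc42 itself stood at -0.21 ± 0.06 (lowest -0.27, median -0.22, highest -0.12, adjusted p = 0.000174), but its 2 probes read -0.03 ± 0.10 and -0.39 ± 0.15, so the mean stands for neither. Its effectors Cdc42se1, Cdc42se2 and Cdc42ep1 stood at -0.19 ± 0.16, -0.18 ± 0.10 and -0.16 ± 0.08 (adjusted p = 0.00919, 0.00148 and 0.00167), and for Cdc42se2 and Cdc42ep1 every mouse was below 0. Cdc37l1, a relative of the Hsp90 co-chaperone Cdc37, was positive at 0.17 ± 0.12 (lowest 0.00, median 0.16, highest 0.32, adjusted p = 0.0051), and its 2 probes read 0.18 and 0.16. Cdc73, of the Paf1 transcription complex (-0.02 ± 0.14, n = 6), and Cdc5l, of the spliceosome (-0.03 ± 0.15), lay closest to 0. Ccndbp1, a binding partner of cyclin D, stood at -0.04 ± 0.10.

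The spread over mice was wider for these genes than for most: the median SD was 0.127, against 0.106 over all tested. The median SD between the 2 arrays of a mouse, which is a technical error, was 0.0726, against 0.0688 over all tested. In 12 of the genes the SD between arrays was above the SD over mice. The first is an SD of single arrays and the second an SD of means of 2 arrays. The count therefore does not show that arrays differed more than mice. Its share over all tested was not computed. Values come in steps, the smallest of which is 0.14 from 0, and 31.8% of all deposited values are exactly 0.

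Whether the treated mice differed among themselves was asked by identifier. The mice carry identifiers of 2 series, SY and TP, with 4 mice in each, whose meaning the labels do not give. The series nearly follow a code in the array names, c3z on SY and bl7 on TP arrays, except that SY518Z has 1 array of each. Between the series, 6 of the 70 genes differed at an adjusted p under 0.05 (8.57%), against 5.7% of all tested. All 6 were lower in SY, without overlap: Rrm1, Ccnd2, E2f5, Cdc45, Top2a and Pold1. At an unadjusted p under 0.05 there were 27 genes (38.6%, against 24.8% of all tested), and 9 did not overlap between the series (12.9% against 10.3%).

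Rrm1 stood at -0.26, -0.14, -0.32 and -0.14 in the SY mice and at 0.49, 0.26 and 0.26 in the 3 TP mice with a value. Each of these TP values comes from 1 array, since the other was blank. The means of -0.21 ± 0.09 (n = 4) and 0.34 ± 0.13 (n = 3) differed by -0.55, SY minus TP (adjusted p = 0.00689). Each series on its own lay on 1 side of 0, and the 2 cancel in the overall mean. Ccnd2, cyclin D2, stood at -0.26, -0.26, -0.43 and -0.32 in SY and at 0.20, 0.00, 0.00 and 0.07 in TP mice (difference -0.39, adjusted p = 0.0109). E2f5 stood at 0.00, 0.12, -0.14 and -0.07 in SY and at 0.49, 0.32, 0.38 and 0.20 in TP mice (difference -0.37, adjusted p = 0.0192). For Ccnd2 the SY mice were away from 0, and for E2f5 the TP mice.

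Cdc45 stood at -0.07, -0.14, -0.14 and -0.14 in SY and at 0.37, 0.38 and 0.07 in 3 TP mice (difference -0.39, adjusted p = 0.0218). Top2a stood at -0.07, 0.00, -0.32 and -0.07 in SY and at 0.49, 0.31, 0.14 and 0.20 in TP mice (difference -0.40, adjusted p = 0.0255). Pold1 stood at -0.14, 0.06, -0.20 and -0.07 in SY and at 0.58, 0.14 and 0.26 in 3 TP mice (difference -0.41, adjusted p = 0.0428). TP4215 was the highest TP mouse for all 6 but Cdc45, where it lay just under TP4205. Rrm1 passed whichever mouse was left out (adjusted p from 0.0072 to 0.0447), but it had values on only 3 TP arrays, as did Pold1. Ccnd2 was lost without SY524ROB+L or SY522ROB. E2f5, Cdc45, Top2a and Pold1 were lost in 5, 5, 5 and 7 of the 8 fits. In simulated data of this comparison, built in the same way with genes drawn at random, 22% of 1.2-fold and 86% of 1.5-fold differences were called.

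**Figure D3:**
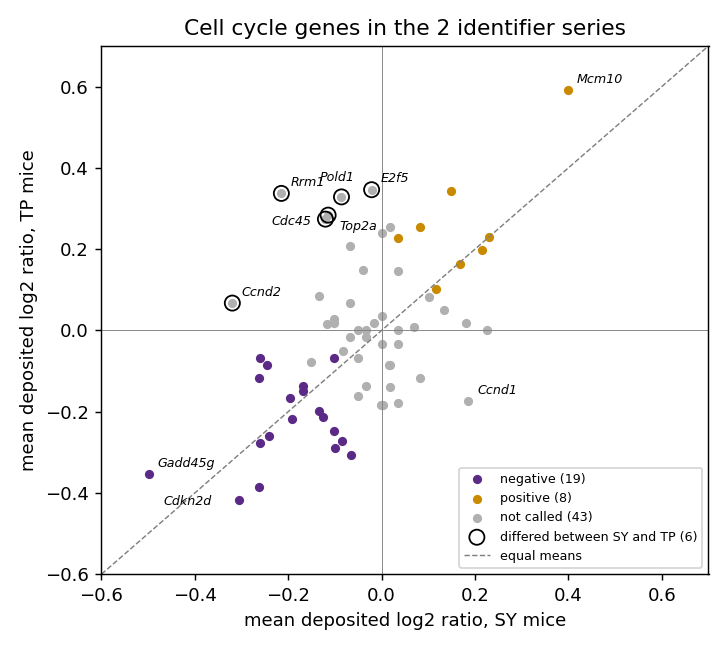
Mean deposited log2 ratio of the 4 SY mice (horizontal axis) against that of the 4 TP mice (vertical axis), with 1 point per tested gene, coloured by the test of the mean over all mice and ringed where the series differed; the dashed line marks equal means. The 27 genes that passed over all mice have the same sign in both series, which that choice makes likely. In SY mice alone 18 of them passed, and in TP mice alone 19. The 6 ringed genes lie above the line, with Rrm1 farthest from it at -0.21 and 0.34.

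Blank values went with these differences. All 6 genes lacked a value on at least 1 array: Rrm1 had values on 10 arrays, Ccnd2 and E2f5 on 15 each, Cdc45 on 12, Top2a on 13 and Pold1 on 11. Of the 17 tested genes with a blank array, 6 differed between the series, and of the 53 with values on all 16 arrays, 0 did by limma (17 at an unadjusted p under 0.05). Over everything tested the shares were 18.7% with a blank and 3.86% without. The second array of TP4205 was blank for all 6, and for Ccnd2 and E2f5 it was the only blank array. The tested cell cycle genes had 37 blank values on TP arrays and 7 on SY arrays. All 7 on SY arrays were on the bl7 array of SY518Z. Every blank of these genes was thus on a bl7 array, and none was on a c3z array. The sources used here do not say what a blank stands for, and its part in the result was not tested.

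The mouse with 1 array of each code read as follows. For E2f5 the bl7 array of SY518Z stood at 0.38, like the TP mice, and its c3z array at -0.14, like the other SY mice. For Pold1 the same arrays read 0.26 and -0.14. For Ccnd2 both read -0.26. Rrm1, Cdc45 and Top2a were blank on its bl7 array. Without SY518Z, 16 of the genes differed between the series, but so did 1275 of all 8348 tested (15.3%, against 5.7% with it). The first array of SY518Z is its bl7 array and the second its c3z array. With the first array of each mouse alone, 0 of the genes differed by limma (16 at an unadjusted p under 0.05), nor did any of the 8175 tested. Rrm1 and Pold1 had too few values to be tested there. With the second array alone, 4 of the genes differed, and 228 of 8237 tested (2.77%). Rrm1 had too few values in that fit as well. All SY arrays in it carry the code c3z and all TP arrays bl7. Mouse series and array code are shared by all mice but this one and cannot be told apart.

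**Figure D4:**
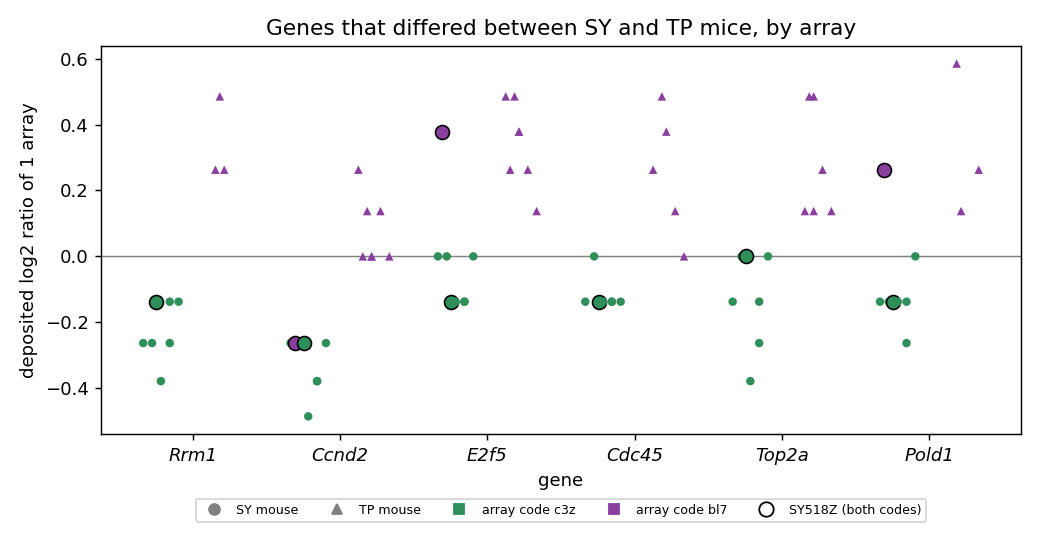
Deposited log2 ratio of each single array (vertical axis) for the 6 genes that differed between SY and TP mice (horizontal axis), with circles for SY and triangles for TP mice, coloured by array code, and the arrays of SY518Z ringed. The bl7 array of SY518Z lies among the TP arrays for E2f5 (0.38) and Pold1 (0.26) and among the SY arrays for Ccnd2 (-0.26).

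Genes of the same processes that the symbol rule leaves out were read from 4 lists, to be set beside the 43.4% of everything tested that passed. Of 26 tested genes of replication, 9 were negative, 5 were positive and 12 did not pass (53.8% passed, median -0.02). They were led by Shmt1, which feeds thymidylate synthesis (0.51 ± 0.11, adjusted p = 2.77e-06), Gins3 and Gins1, subunits of the active helicase (-0.40 ± 0.16 and -0.26 ± 0.09, adjusted p = 6.94e-05 and 0.000133), and Fen1, which trims Okazaki fragments (-0.26 ± 0.13, adjusted p = 0.000452). Shmt1 and Tyms, which act in the same cycle of folate and thymidylate, were both positive, a pair named after the values were seen. Of other genes of nucleotide synthesis, Ctps was negative (-0.17 ± 0.03), and Dut and Umps did not pass (-0.08 ± 0.08 and -0.04 ± 0.10). Of 43 genes of mitosis, 12 were negative, 6 positive and 25 did not pass (41.9% passed, median -0.05), with Cenpf of the kinetochore at 0.30 ± 0.23 (n = 6; SY 0.16 and TP 0.58), Incenp, the partner of Aurkb, at -0.30 ± 0.08, Hmmr at 0.27 ± 0.09 and Plk4, the kinase of centriole copying, at -0.26 ± 0.12 (adjusted p = 0.00857, 3.25e-05, 7.63e-05 and 0.000305).

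Of 15 p53 targets outside the rule, 2 were negative, 3 positive and 10 did not pass (33.3% passed, median 0.02). Trp53inp1 stood at 0.23 ± 0.31, but this mean stands for neither series: its SY mice averaged -0.05 ± 0.10 and its TP mice 0.51 ± 0.03 (n = 4 each, SY minus TP -0.56, adjusted p = 0.00352). Btg1 stood at -0.22 ± 0.19, Mdm2, the ubiquitin ligase of p53, at -0.13 ± 0.08 and Pmaip1 at 0.13 ± 0.09 (adjusted p = 0.00729, 0.0051 and 0.00999), where that of Trp53inp1 was 0.0479. The sign of Cdkn1a was thus not that of the list as a whole. Of 26 genes of G1 control and growth signals, 10 were negative, 2 positive and 14 did not pass (46.2% passed, median -0.08). Skp1, of the SCF ubiquitin ligase, stood at -0.36 ± 0.15, Ccnl2, a cyclin of splicing, at 0.32 ± 0.13, the receptor gene Tgfbr2 at -0.23 ± 0.05 and Mxd3, an antagonist of Myc, at -0.22 ± 0.07 (adjusted p = 9.61e-05, 0.000131, 4.88e-05 and 0.00012).

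Markers of the cell types of liver also passed on both sides. Over everything tested, 25.4% were negative and 18% positive, 43.4% in either direction. The shares that passed were 75% for macrophages, 71.4% for bile duct, 64.3% for lymphocytes, 60% for stellate cells and 58.3% for hepatocytes. They were 44.4% for endothelium and 28.6% each for neutrophils and erythroid precursors. Of 16 markers of Kupffer cells and macrophages 11 were negative and 1 positive (median -0.18, from -0.38 to 0.10 over mice), with Cd68 at -0.65 ± 0.22, Lgals3 at -0.58 ± 0.32, Ctss at -0.38 ± 0.26 and Spi1 at 0.28 ± 0.10. Of 15 of stellate cells and fibroblasts 9 were negative and 0 positive (median -0.20, from -0.43 to 0.00 over mice), with Acta2 at -0.49 ± 0.28 and Col4a1 at -0.46 ± 0.17. Of 12 hepatocyte markers 2 were negative and 5 positive (median 0.11, from -0.14 to 0.35), with Hpd at 0.73 ± 0.22 and Apoa1 at -0.52 ± 0.35. The counts of negative and positive genes were 7 and 2 of 14 for lymphocytes (Cd52 at -0.40 ± 0.19), 2 and 0 of 7 for neutrophils (Camp at -0.14 ± 0.13), 1 and 1 of 7 for erythroid precursors (Tfrc at -0.22 ± 0.22), 2 and 2 of 9 for endothelium (Eng at -0.29 ± 0.07) and 4 and 1 of 7 for bile duct (Epcam at -0.42 ± 0.24). The negative cell cycle genes were grouped by their sign, so sharing it with negative markers shows nothing. The 70 tested genes as a set had a median of -0.03, and the part of cell types in the result was not tested.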

How the data were processed

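The deposited table holds 1 column per array and gives a log2 ratio of the channels, as its values show: each of 144660 values is the log2 of a ratio with 1 decimal, or its negative, within 0.01 of 10 times the ratio. The sources used here do not say how the authors corrected, normalized and filtered the scans. All 16 arrays had a median of 0. Arrays carried values for 8094 to 9314 of 9596 probes, and no counts, so precision rests on the number of arrays.

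Probes were named through the platform annotation: 7407 had 1 symbol, 437 several and 1752 none, and 7330 matched a current gene through Entrez with 0 symbols changed. Probes of a gene and then the 2 arrays of a mouse, which share its RNA, were averaged. Genes with values in at least 6 of 8 mice were tested (8348; 575 left out) with limma 3.58.1 in R 4.3.3, as the mean against 0 and as SY against TP mice, two-sided, with Benjamini-Hochberg adjustment over all 8348. The labels give separate mice, so p-values measure the spread between animals.

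The members and lists were chosen with earlier results of these data known. Named were members that passed either test or were not tested, the 2 closest to 0 in each role group, the 3 with the largest SDs and the 3 with the largest array gaps, up to 4 leading genes per list, and Gstm1 and Cyp7a1. The scripts were tested on simulated data, with 9 and 12 false calls of 8348. Alternatives were normalization, blanks, probes, arrays, moderation, a minimum fold, control spread and mice left out. Figures were drawn with matplotlib 3.10.9.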

Additional observations from a re-analysis of the deposited data

Results flagged for a closer look

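3 genes had 1 mouse far from the other 7, and in each it was TP4215: Ccng1 with its highest value, 0.22, against -0.13 in the nearest mouse, Cdc25c with its lowest, -0.49, against -0.14, and Cdk4, the kinase of cyclin D, with its highest, 0.32, against 0. Among 70 tested genes a few such gaps can arise by chance, and how often they do in values that come in steps was not worked out. The share of all tested genes with such a gap was not counted. TP4215 also had the widest spread of values over all genes (SD 0.246, against 0.168 to 0.232 in the other mice).

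6 genes differed between SY and TP mice by limma. SY minus TP was -0.55 for Rrm1, -0.41 for Pold1, -0.40 for Top2a, -0.39 for Cdc45, -0.39 for Ccnd2 and -0.37 for E2f5, with the SY mice lower in each.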

How the results depend on the processing

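Of the values computed for single genes under the alternatives, 1432 kept their side of the threshold without a change of sign, and 51 changed sign while passing neither before nor after. In 75 a gene was no longer past the threshold, in 38 it newly passed, and in 2 it passed with the sign turned: in SY mice alone Cdc45 stood at -0.12 (adjusted p = 0.0315) and Rrm1 at -0.21 (adjusted p = 0.0258). The counts of 8 positive and 19 negative genes stayed within 1.5 times under every alternative but those next named, from 6 to 12 positive and from 13 to 23 negative. Against a minimum of 1.2-fold 1 gene was positive and 0 were negative by limma (2 negative at an unadjusted p under 0.05), and with the spread of 7 control mice added 5 were positive. Leaving out mice in turn gave 7 to 11 positive and 17 to 23 negative genes. The 6 genes that differed between SY and TP mice became 3 where values in all 8 mice were required, since Rrm1, Cdc45 and Pold1 have values in 7, and 0 by limma with first arrays alone (16 at an unadjusted p under 0.05), where Rrm1 and Pold1 were not tested and 0 of 8175 passed. Second arrays alone, where Rrm1 was not tested, gave 4 (228 of 8237 tested), among them Mcm3, which is outside the 6. The number of genes that differed ranged from 1 to 16 as mice were left out. It was 1 without SY524ROB+L or SY522ROB, 2 without SY521RL or TP4215, 3 without TP4205 and 16 without SY518Z. The count over everything tested went from 33 without SY522ROB to 1275 without SY518Z, and the cause was not tested. Scaling arrays to a common SD, chosen after the data were seen, gave 8, 20 and 6. Centring arrays or scaling them to a common median absolute value changed no value. No paired analysis was possible because the arrays form 1 group. Dim probes cannot be told from bright ones in ratios, and values below a step of 0.14 are not resolved on 1 array.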
